A study of Drosophila melanogaster with 6 samples.

Results

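The baseline transcript pool of the adult fly antenna was described from the 3 control libraries of a series of 6. These 3 were chosen by their titles, control 1 to 3, and no library of the other group enters any value. RNA-seq had been run on poly(A) RNA from female Drosophila melanogaster antennae, with the antennae of about 350 flies in each library. Control flies were peb-Gal4/+;Or49a-GFP/+, so they carried a Gal4 driver inserted at peb and a green fluorescent reporter under Or49a sequences. These flies were kept at 25 °C with 12 h of light and 12 h of dark. The other group, PCD-blocked, carries the same driver and reporter, has UAS-p35, a caspase inhibitor transgene, in addition, and was not analysed here. The controls are therefore a driver and reporter line and not a wild-type strain. The age of the flies is not given in the sources used here.

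The antenna is the main olfactory organ of the fly. Odour molecules enter hair-like sensilla through pores and cross a lymph filled with odorant-binding proteins and enzymes, which are secreted by support cells around the neurons. Olfactory neurons detect them with tuning receptors of the Or, Ir and Gr families. Or proteins work with the co-receptor Orco, and Ir proteins with Ir8a, Ir25a or Ir76b. Sensilla are basiconic, trichoid, intermediate or coeloconic by shape, and the sacculus and arista hold neurons for humidity and temperature.

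Gene counts were 17808516, 17482061 and 17370320 in control 1, 2 and 3. Each file lists 17698 genes, and 8693 of them, or 49.1%, had a mean of at least 1 CPM, the count scaled to a fixed total of gene counts per library. Those genes held 99.9% of gene counts, and 8385 of them are protein-coding, of 13829 protein-coding genes annotated. The detected share of protein-coding genes was thus above the 49.1% of all genes. A count of 3 in a library corresponds to 0.168 to 0.173 CPM, the limit that a count of 0 allows. Levels of different genes were compared as TPM, in which each count is divided by the length of the gene's exons before scaling to the same fixed total. In whole antennae, fewer cells of a type and less RNA per cell cannot be told apart.

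A small number of genes made up much of the pool. The 10 genes of highest TPM held 19.3% ± 0.497 of TPM (SD, n = 3), and the 100 highest held 42.7% ± 0.684. The 100 genes of highest CPM held 28.1% ± 0.460 of counts. Counting from the most abundant gene down, 50% of TPM lay in 186 genes, against 470 genes for 50% of counts. The 3 genes of highest TPM had 1101, 604 and 567 exon bases. Among genes at 1 CPM or more the median level was 29.7 TPM, and the highest gene stood 1282 times above it.

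**Figure D1:**
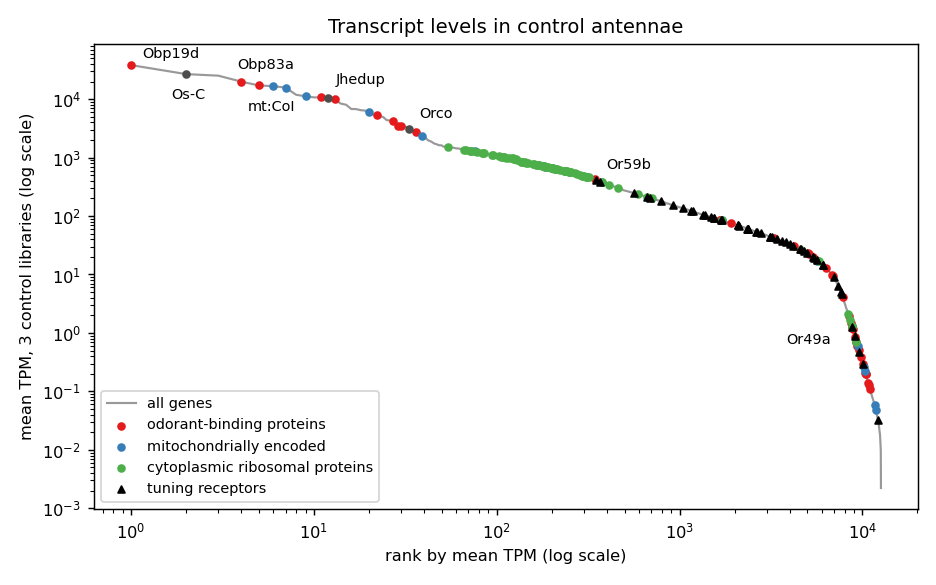
Mean TPM of every gene above 0 in the 3 control libraries against its rank, both on log scales, with 4 classes marked. Odorant-binding proteins (red) lie both at the top of the curve and in its tail, ribosomal proteins (green) form a band near 1000 TPM, and tuning receptors (black triangles) start at rank 348 with Or59b.

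Odorant-binding proteins led the pool. Obp19d (FBgn0011280, chromosome X, 20419613 to 20420979) had the highest level of all genes, at 37165, 37541 and 39644 TPM in control 1, 2 and 3, a mean of 38117 ± 1336. Its share of counts was also the highest, 20519.8, 20328 and 21541 CPM. The libraries stood within 1.06-fold of each other for this gene. Obp83a (chromosome 3R, 5972155 to 5975245) had 19182, 19864 and 20708 TPM and its neighbour Obp83b (5976177 to 5976817) had 18172, 17092 and 16061 TPM. Obp83a was highest in control 3 and Obp83b in control 1, so these adjacent genes did not vary together across the libraries. Obp28a followed with 10657 ± 297 TPM and Obp19a, which lies near Obp19d on chromosome X, with 9847 ± 118 TPM. These 5 genes held 82.6% ± 0.553 of the TPM of their family.

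The family as a whole held 11.6% ± 0.160 of TPM and 4.93% ± 0.0932 of counts. Of its 52 genes, 25 reached 1 CPM, and 11 had no count in any control library. The share reaching 1 CPM was close to the 49.1% of all genes listed and below that of protein-coding genes, 8385 of 13829. The 25 fell into an abundant and a less abundant set. The abundant set had 10 members, the last of them Obp59a at 2786 ± 70.3 TPM (rank 36), a gene linked to humidity sensing. It also held lush, the alcohol and pheromone binding protein of trichoid sensilla, at 4184, 4138 and 4128 TPM. The next gene below Obp59a was Obp57c with 423 ± 56.7 TPM (rank 346), and Obp19b, Obp49a and Obp57b stood between 75.5 and 86.2 TPM. Obp19b lies between Obp19a and Obp19d on the chromosome, and its level of 86.2 ± 8.24 TPM was far below that of either neighbour. Reads of Obp84a and Obp59a may have been mixed with those of opposite genes or lost. Of their exon bases, 81.1% and 22.1% lie opposite another gene's exons, and the use of strand in the counting is not given.

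Other secreted proteins of the antenna stood beside them. Os-C (chromosome 3R, 7978959 to 7979614), an antennal secreted protein, had 27238, 26379 and 26644 TPM and ranked 2. The chemosensory protein gene a10 (chromosome 3L, 17023123 to 17023741) had 25565, 24740 and 25193 TPM and ranked 3. Both were highest in control 1, and the highest library exceeded the lowest by 1.05-fold in each. The antennal protein gene a5 had 6776 ± 332 TPM, and EbpIII, which belongs to the chemosensory protein family, had 4368 ± 66.0 TPM. Phk-3, of the same family, was at 6.53 ± 1.34 TPM. The 5 genes together held 6.31% ± 0.121 of TPM. Several abundant genes fell outside any list. These were OS9 at 11841 ± 203 TPM, Jhbp3, named as a juvenile hormone binding protein, at 10706 ± 598 TPM, and Drsl5, a relative of the antifungal peptide drosomycin, at 6465 ± 409 TPM. The takeout gene, to, whose family carries small hydrophobic molecules, had 3332 ± 422 TPM.

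Enzymes that modify odorants and foreign compounds were led in each class by a few genes far above the rest. Their shares of genes at 1 CPM or more stand beside 49.1% for all genes and 8385 of 13829 for protein-coding genes. That of the UDP-glycosyltransferases was close to the share of all genes and below that of protein-coding genes. Jhedup (chromosome 2R, 16117109 to 16119149), an antennal esterase known to degrade odorant esters, had 10294, 10177 and 10467 TPM and ranked 12. Est-6, an esterase also known from the male ejaculate, had 2807 ± 108 TPM. Together the 14 carboxylesterases held 1.42% ± 0.0245 of TPM, with 13 of them at 1 CPM or more, and the median of those 13 was 31.4 TPM. The glutathione transferases held 1.60% ± 0.0175 of TPM, with 32 of 35 genes at 1 CPM or more, led by GstE4 at 6752 ± 134 TPM. The cytochrome P450 genes held 1.77% ± 0.108, with 60 of 89 at 1 CPM or more. Their leading gene was Cyp6w1 at 4687, 4600 and 3648 TPM, lowest in control 3, followed by Cyp6g1, known for its part in insecticide resistance, at 3380 ± 77.7 TPM. The UDP-glycosyltransferases held 0.667% ± 0.0270, with 18 of 35 genes at 1 CPM or more, and Ugt35B1 at 4896 ± 250 TPM was far above Ugt302C1 at 470 ± 32.6 TPM. Antdh, the antennal dehydrogenase gene, had 7777, 8749 and 8653 TPM.

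**Figure D2:**
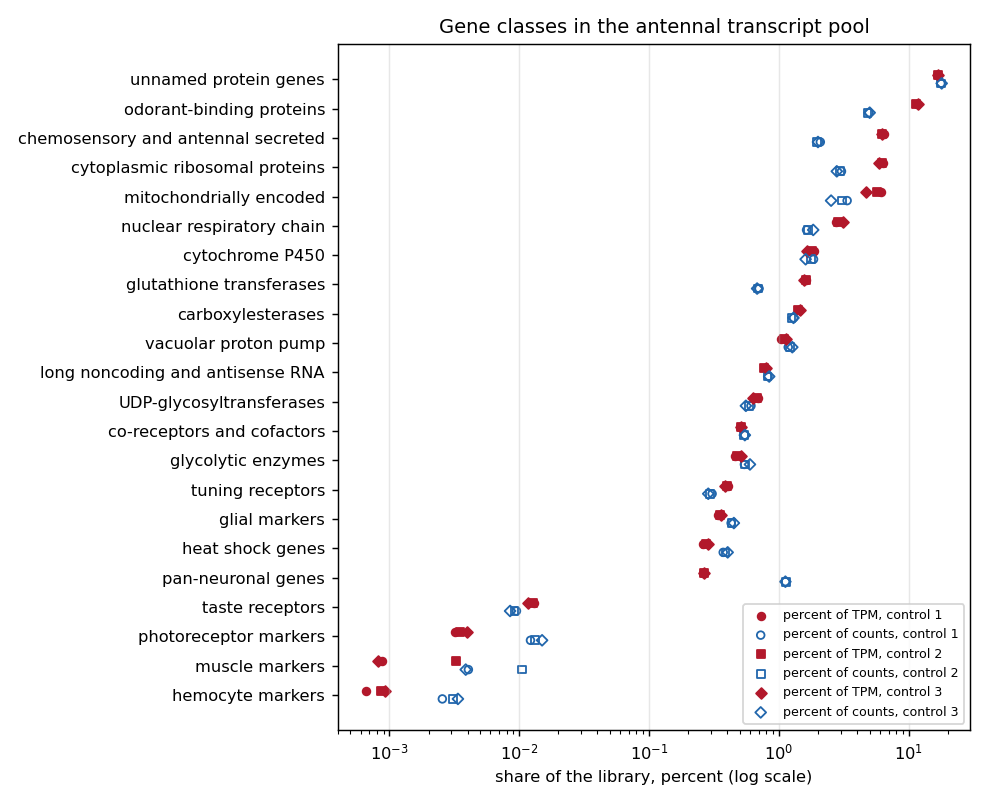
Share of each gene class in the 3 control libraries, in percent on a log scale, as TPM (filled) and as counts (open), with a marker shape for each library. Odorant-binding proteins and chemosensory proteins have larger shares of TPM than of counts, and pan-neuronal genes the reverse, 0.264% of TPM against 1.13% of counts.

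Receptor transcripts were a far smaller part of the pool. The 55 tuning receptors of the antenna summed to 4082, 3996 and 3855 TPM, a mean of 3978 ± 114.5, or 0.398% of TPM. Odorant-binding proteins summed to 29.1 ± 1.17 times as much. Obp19d alone had 12.3 ± 0.532 times the level of Orco. Of the 55 receptors, 48 reached 1 CPM, beside 49.1% of all genes and 8385 of 13829 protein-coding genes. Of the 48, 35 lay above the 29.7 TPM median of genes at 1 CPM or more. These 48 spanned an 89.5-fold range, and the 5 highest held 37.1% of the summed level.

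The order was led by receptors of basiconic sensilla. Or59b (chromosome 2R), a receptor for small acetate esters, had 416, 431 and 412 TPM. Or92a, a receptor for diacetyl, had 411, 373 and 382 TPM. The ranges of the pair did not overlap, by a gap of under 1 TPM. Or22b came next at 246 ± 4.60 TPM, then the acetic acid receptor Ir75a at 213 ± 14.7 TPM, Or43b at 207 ± 6.97 TPM and the carbon dioxide receptor subunit Gr63a at 182 ± 8.18 TPM. Ir75a and Or43b overlapped between 201 and 214 TPM, and 40.7% of the exon bases of Or43b lie opposite another gene. Below the first few genes the order was mostly unresolved, since 36 of the 47 pairs of neighbours in it had overlapping ranges.

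By type, basiconic receptors summed to 2610.1 ± 74.1 TPM with 23 of 28 genes at 1 CPM or more, and coeloconic receptors to 678 ± 28.5 TPM with 10 of 10. Trichoid and intermediate receptors summed to 483 ± 20.8 TPM with 11 of 12 genes, and receptors of the sacculus and arista to 207 ± 7.32 TPM with 4 of 5. These counts stand beside 49.1% of all genes and 8385 of 13829 protein-coding genes. Single receptors of the types other than basiconic mostly lay below the leading basiconic genes. Or47b, a pheromone-responsive receptor, led the trichoid and intermediate list at 130, 122 and 111 TPM, and Or67d, the receptor for the male pheromone cis-vaccenyl acetate, had 95.7, 96.4 and 84.6 TPM. Among receptors outside the sensilla of the surface, the acid receptor Ir64a had 96.3 ± 5.84 TPM and Ir40a, a humidity receptor, 60.7 ± 1.34 TPM. The cool receptor Ir21a had 44.4 ± 2.68 TPM, but 79.3% of its exon bases lie opposite another gene. Gr28b was the lowest of the 48 at 4.69 ± 0.458 TPM. Ir75d, at 6.25 ± 1.30 TPM, shares 90.7% of its exon bases with COX6AL2 on its strand, so its reading is uncertain.

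**Figure D3:**
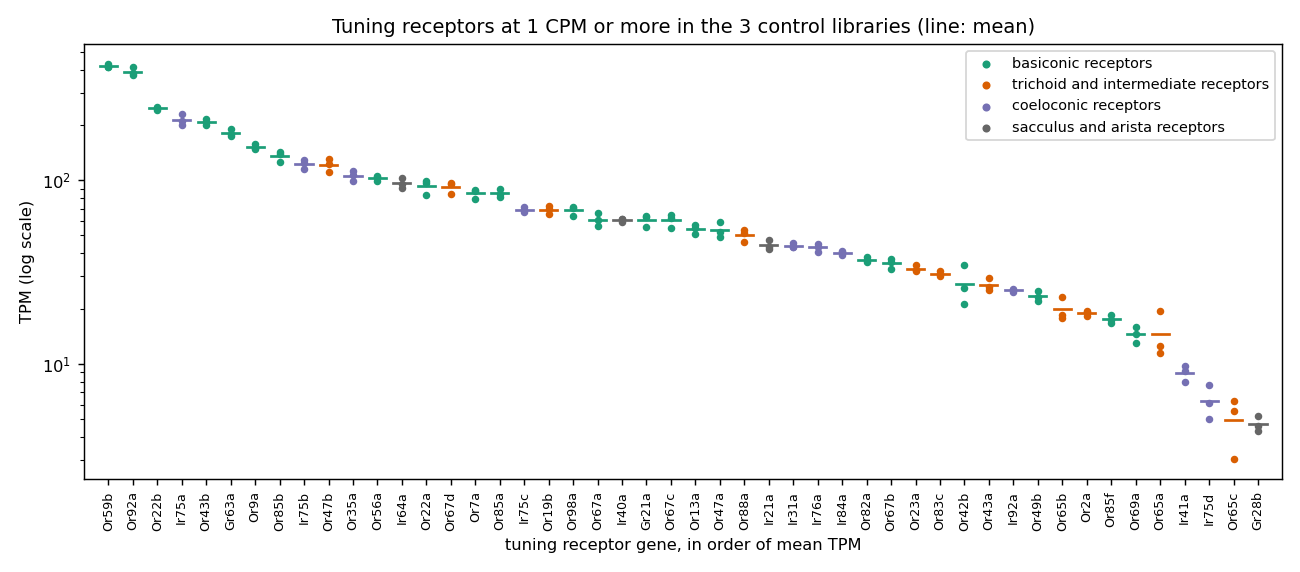
TPM (log scale) of the 48 tuning receptors at 1 CPM or more in order of their mean, with a point for each control library, a line for the mean and a colour for the sensillum type. Or59b and Or92a stand apart at the top near 400 TPM, most neighbours overlap, and Or42b and Or65a show wider spread than the genes beside them.

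Receptors listed for the same sensillum differed widely in some sensilla and little in others. The highest and the lowest receptor at 1 CPM or more were compared, which favours wide ratios where more genes are listed. In basiconic ab1 sensilla Or92a had 15.0 ± 4.15 times the level of Or42b, the vinegar receptor. In trichoid at4 sensilla Or47b had 26.4 ± 8.82 times the level of Or65c, which had a mean of only 3.03 CPM and varied 2.10-fold between libraries. The other at4 receptors, Or88a, Or65b and Or65a, had 50.3, 19.8 and 14.4 TPM, against 121 TPM for Or47b. In ab2 sensilla Or59b had 4.95 ± 0.270 times the level of Or85a. Other pairs were closer, with ratios of 1.14 ± 0.0381 for Or98a and Or67c in ab7, 1.08 ± 0.0803 for Ir76a and Ir84a in ac4, and 1.07 ± 0.0626 for Or23a and Or83c in ai2. In ac4 and in ai2 the order of the pair turned in 1 of the 3 libraries. The carbon dioxide receptor subunits, which act together in the same neuron, were also unequal, with Gr63a at 3.00 ± 0.229 times Gr21a. Or22b had 2.67 ± 0.221 times the level of Or22a, a closely related neighbour, so reads of the pair could have been split or lost in counting.

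For 7 tuning receptors the mean was below 1 CPM. Or49a, the gene named in the reporter, had 6, 9 and 12 counts in control 1, 2 and 3. Or19a had 17, 13 and 8 counts, Ir68a had 11, 11 and 8, and Or33b had 5, 3 and 1. Or19b, listed for the same ai3 sensilla as Or19a, had 39.8 CPM. Reads aligned to more than 1 place, 7.49%, 7.67% and 7.21% of counts in control 1, 2 and 3, entered no gene count. Whether Or19a lost reads in this way was not tested. A single count was found for Or98b, in control 1. Or10a and Gr10a are listed at 0 in every library, but they share 100% of their exon bases with each other, and reads in shared exons may have been left uncounted. Of 493 genes that share at least 95% of their exon bases with another gene on their strand, 483 are listed at 0, so a 0 for such a gene is no measure of its level.

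Of the co-receptors, Orco was the most abundant. Orco (chromosome 3R, 5407183 to 5412406) had 3021, 3177 and 3078 TPM and ranked 33, and its highest library exceeded the lowest by 1.03-fold. Its level was 1.05 ± 0.0440 times the sum of the 38 tuning Or genes. Ir76b had 314 ± 11.8 TPM, Ir25a had 234 ± 2.87 TPM and Ir8a had 194 ± 4.07 TPM, and their sum was 0.959 ± 0.0414 times that of the 13 tuning Ir genes. Ir93a, the co-receptor of temperature and humidity neurons, was at 6.21, 7.89 and 8.51 TPM. Snmp1, a membrane protein needed for pheromone detection, had 1260 ± 66.3 TPM, and Amt, an ammonium transporter, had 1429 ± 15.4 TPM.

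Neuronal genes were detected throughout, at moderate levels. All 22 pan-neuronal genes reached 1 CPM, beside 49.1% of all genes, and summed to 0.264% ± 0.00295 of TPM. The neuronal RNA-binding gene elav had 38.4, 39.8 and 36.5 TPM, and the synaptic vesicle gene nSyb had 372 ± 7.89 TPM. Acetylcholine is the transmitter of olfactory neurons, and ChAT, which makes it, had 63.2 ± 3.89 TPM, while sNPF, a neuropeptide gene, had 280 ± 7.03 TPM. The driver locus peb had 49.4, 55.2 and 55.5 TPM, and the eye pigment transporter gene w had 51.8, 45.9 and 54.9 TPM. Of 22 genes for cilia and for the auditory organ in the antennal base, 14 reached 1 CPM. That share was near that of protein-coding genes, 8385 of 13829, and above the 49.1% of all genes. The 14 had a median of 37.3 TPM, and the 22 summed to 668 ± 31.2 TPM. The cilium gene BBS4 led them at 226 ± 16.2 TPM. The mechanosensory channel genes of the auditory neurons, picked out after their values were seen, were at the low end: nompC had 62, 89 and 55 counts, iav had 29, 22 and 14, and nan had 7, 5 and 4.

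Genes listed for signalling and transcription factors of sensory neurons were also detected, in whole antennae that do not tell their cell type. All 14 genes for G proteins, calcium and cyclic AMP signalling reached 1 CPM and summed to 0.184% ± 0.00538 of TPM, led by Ggamma1 at 510.4 ± 20.1 TPM. Of 22 transcription factor genes 18 reached 1 CPM. Both counts stand beside 49.1% of all genes and 8385 of 13829 protein-coding genes. The stress and secretion regulator Xbp1 had 576 ± 13.5 TPM, and Dll and ss, which specify antennal identity, had 287 ± 13.8 and 230.0 ± 16.1 TPM. The light-sensing clock gene cry had 516, 523 and 530.2 TPM, the most abundant of 8 clock genes.

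Most markers listed for support cells and glia were detected as well. All 8 support cell markers found in the files reached 1 CPM, beside 49.1% of all genes and 8385 of 13829 protein-coding genes. The list includes lush, Amt and Snmp1, already described above, at 4150, 1429 and 1260 TPM of its summed 7111 TPM. Amt also leads a list of olfactory accessory neuron proteins, so it is not a marker of support cells alone. The transcription factor genes Su(H) and sv had 159 ± 9.55 and 66.4 ± 1.09 TPM, and pros, a marker of sheath cells, had 10.4, 12.6 and 10.3 TPM. Of the 11 glial markers 9 reached 1 CPM. Gs2, a glutamine synthetase, was at rank 34 with 2938 ± 49.7 TPM, far above the glial transcription factor gene repo at 21.6 ± 1.92 TPM and the barrier gene moody at 67.9 ± 2.43 TPM. The astrocyte gene alrm had 0, 5 and 4 counts.

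Markers of other tissues ranged from near 0 to abundant. The fat body and yolk list had 8 of 11 genes at 1 CPM or more, beside 49.1% of all genes. Its sums were 4408, 3643 and 3444 TPM. Most of that sum came from the gene to, at 3332 ± 422 TPM, followed by the fatty acid synthase gene FASN1 at 371 ± 8.10 TPM. The photoreceptor opsin ninaE had 1, 2 and 3 counts, and 3 of 12 photoreceptor markers reached 1 CPM, a share below that of all genes. Beside 49.1% of all genes and 8385 of 13829 protein-coding genes, 3 of 7 receptors of the maxillary palp, the other olfactory organ of the head, reached 1 CPM. The highest was Or46a at 21.0 ± 0.306 TPM, although all of its exon bases lie opposite another gene, and of 14 larval receptors only Or33a reached 1 CPM. Of 18 genes on the taste receptor list 8 reached 1 CPM, and Gr64f, a sugar receptor, was the highest of them at 90.4, 89.0 and 84.4 TPM. Markers of males gave a mixed reading. Of 6 sex-linked markers 2 reached 1 CPM and 3 had no count. The 3 were the seminal gene SP, the testis gene Mst84Da and roX2, and a 0 allows up to 3 counts in a library. Acp36DE, another seminal gene, had a count above 0 in at least 1 library. The noncoding RNA roX1, which coats the male X chromosome, had 46.4, 39.1 and 38.4 CPM in these libraries labelled female, with 7.17% of its exon bases opposite ec.

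Genes of general cell function filled much of the rest. Cytoplasmic ribosomal proteins held 6.19% ± 0.230 of TPM, with 84 of 93 genes at 1 CPM or more and 78 among the 500 highest. The 84 of 93 stand beside 49.1% of all genes and 8385 of 13829 protein-coding genes. Mitochondrially encoded genes held 6.10%, 5.66% and 4.69% of TPM in control 1, 2 and 3, and mt:CoI, a subunit of cytochrome oxidase, ranked 2 among all genes by CPM. Nuclear genes of the respiratory chain held 2.93% ± 0.196. The vacuolar proton pump, which support cells can use to energise ion transport, held 1.09% ± 0.0520, and Vha16-1 had 1868 ± 40.0 TPM. Genes known only by a CG number held 16.7% ± 0.216 of TPM. The highest were CG9497 at 8002 ± 235 TPM and CG6409 at 6359 ± 423 TPM, ranks 15 and 19.

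The control libraries lay close together, but by more than counting error. Over the 7507 genes with a mean of 5 CPM or more, the median SD was 5.0% of the mean, against 3.63% for counting alone. A model of the spread in edgeR gave a common biological coefficient of variation of 5.62%, and the median for a gene was 12.3% in the lowest of 4 equal groups by mean level and 4.56% in the highest. For 92 of the 7507 genes, or 1.23%, the highest library exceeded the lowest by more than 1.5-fold. Of the 200 genes of highest CPM, only Msp300, at 1476, 2055 and 1273 CPM, and the P450 gene Cyp6a8, at 1662, 1599 and 1069 CPM, did so. Among tuning receptors with a mean of 5 CPM or more, 3 of 47 did, namely Or42b, Or65a and Ir75d, and among odorant-binding proteins 2 of 20 did, Obp56e and Obp56g. Both classes were above the 1.23% of all genes, and the 5 genes had means of 5.63 to 16.1 CPM, in the low part of the range.

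**Figure D4:**
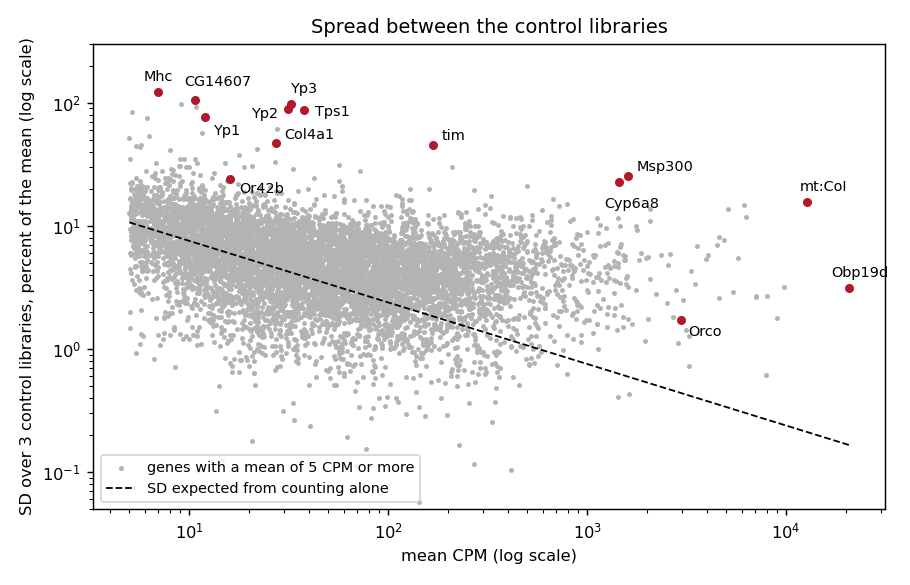
SD over the 3 control libraries in percent of the mean against mean CPM, for genes with a mean of 5 CPM or more, both on log scales; the dashed line is the SD that counting alone would give. Yolk protein genes, Mhc, Tps1, CG14607 and tim lie far above the cloud, while Obp19d and Orco lie within it.

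Of the 92 genes over 1.5-fold, 28 were highest in control 1, 26 in control 2 and 38 in control 3. The genes named here were chosen for their spread, and Mhc, bt, sls, Col4a1 and vkg were picked out after their values were seen. Control 1 was highest for the yolk protein genes, normally made by fat body and ovary: Yp1 had 21.6, 10.6 and 3.57 CPM, Yp2 had 63.6, 18.5 and 11.9 CPM, and Yp3 had 68.9, 19.3 and 9.21 CPM in control 1, 2 and 3. All 3 were highest in control 1 and lowest in control 3, and 54.3% of the exon bases of Yp1 lie opposite another gene. Control 2 was highest for the trehalose synthesis gene Tps1 (29.7, 73.5 and 9.73 CPM), for CG14607 (5.95, 23.5 and 2.65 CPM) and for the muscle myosin gene Mhc (51, 292 and 22 counts). All 3 muscle markers with a mean of 5 CPM or more, Mhc, bt and sls, were highest there. The 14 muscle markers summed to only 8.74, 32.7 and 8.22 TPM in control 1, 2 and 3. Of the 14, 9 reached 1 CPM, near the share of protein-coding genes, 8385 of 13829, and above the 49.1% of all genes. Control 3 was highest for the clock gene tim (151, 103 and 251 CPM), the cuticle gene verm (14.7, 21.3 and 46.6 CPM) and the collagen genes Col4a1 (17.4, 22.5 and 41.7 CPM) and vkg (16.7, 17.4 and 28.0 CPM). Of the other 7 clock genes none differed by more than 1.22-fold between libraries.

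Smaller differences ran through whole classes. Among all genes with a mean of 5 CPM or more, 28.2% were highest in control 1, 30.3% in control 2 and 41.5% in control 3. All 10 mitochondrially encoded genes measured were highest in control 1, as were 60 of 84 ribosomal protein genes. Of 68 nuclear respiratory chain genes 65 were highest in control 3, and so were 11 of 13 glycolytic enzymes and 8 of 9 glial markers. Of the 10 mitochondrially encoded genes 9 were lowest in control 3, the library in which the nuclear genes of the respiratory chain were highest. Of 35 Or genes 24 were lowest in control 3, as were 12 of 22 pan-neuronal genes, against 29.1% of all genes. Across the libraries the median Or gene stood at 0.958 to 1.05 of its mean, and the median pan-neuronal gene at 0.991 to 1.01. The median over all genes stood at 0.989 to 1.01, so the pan-neuronal medians moved no more than those of all genes. These counts kept their direction with TMM-scaled totals, where 63 nuclear respiratory chain genes, 7 glial markers and 26 Or genes took the same places. On those totals, of 7507 genes 2773 were highest in control 3 and 2520 were lowest there. The part of the yolk, muscle, clock and collagen genes in these class patterns was not tested.

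**Figure D5:**
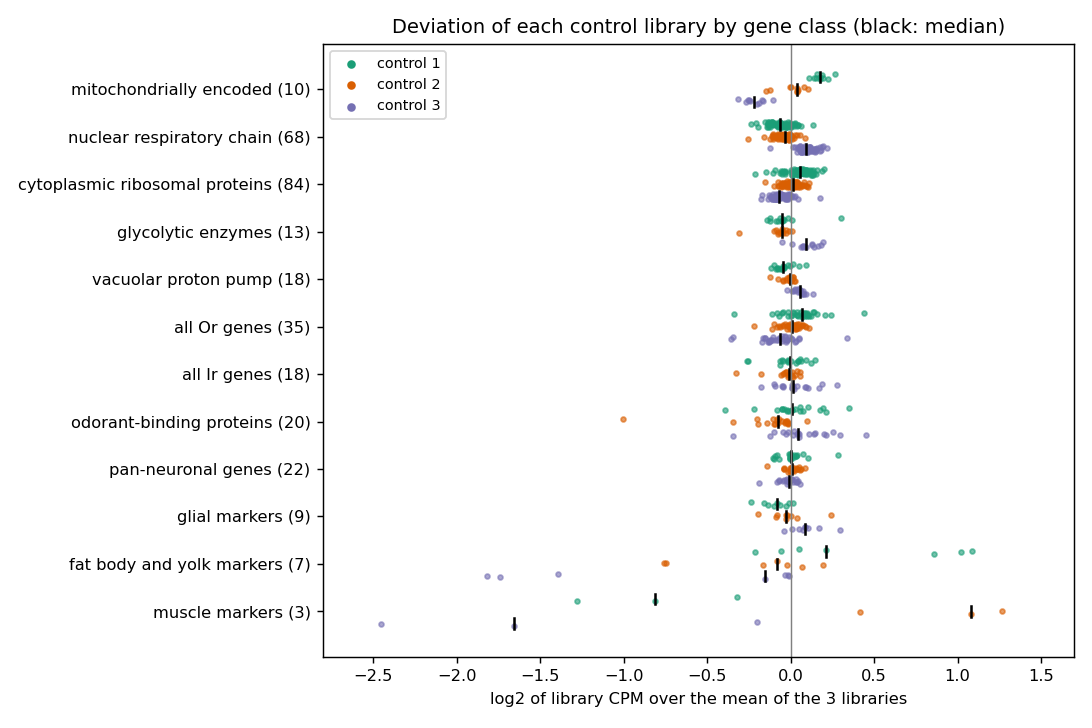
Log2 of the CPM of each control library over the mean of the 3, for genes of 12 classes with a mean of 5 CPM or more (number of genes in brackets); points are genes and black bars are medians. Mitochondrially encoded genes lie right of 0 in control 1 and left of 0 in control 3, nuclear respiratory chain genes show the reverse, and muscle markers are high in control 2.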

How the data were processed

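The deposited values are whole-number read counts per gene, 1 file per library. Per the submitters' processing notes, the authors used STAR 2.5.3a, cutadapt 1.8 and HTSeq 0.9.1 with genome build BDGP6; settings, annotation release and use of strand are not stated there. Reads in exons of overlapping genes may therefore be mixed or lost: of 137 genes lying wholly opposite another gene's exons, 40 had 3 or more counts in every control library. The 5 rows that name no gene held 12.2%, 12.7% and 11.9% of counts in control 1, 2 and 3 and were left out. Files of PCD-blocked libraries were not analysed here.

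CPM is the count scaled to a total of 1e+06 gene counts in each library. TPM was computed here from counts and the union exon length of each gene in the Ensembl release 115 annotation of the same assembly; 17560 of 17698 genes had a length, and the others held at most 0.844% of counts. Coordinates are from that annotation, counted from 1. Means and SDs are over 3 libraries, which the series' design text calls biological replicates. No groups were tested, as there is 1 group. Intervals and floors cover counting error only. The spread was estimated with edgeR 4.0.16 (DESeq2 1.42.0 as an alternative) in R 4.3.3 and checked on simulated counts; other steps used Python 3.11.15. Correlations between libraries over 8693 genes were 0.993 to 0.995 (Pearson, log2 CPM). In a check for repeated deposits, the counts of each pair gave chi-square values, divided by their degrees of freedom, from 4.76 to 10.1, and each library was counted as a sample.

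Members and gene lists were chosen with earlier results of these data known. Genes named were the 20 of highest TPM outside the mitochondrial genome and ribosomal proteins, the 10 of highest CPM, the 4 highest of each list, all tuning receptors and co-receptors, the 10 of widest spread above 10 CPM, the 4 of widest spread among the 200 of highest CPM, and 9 fixed genes. The Obp genes below the 4 highest, alrm, moody, sv, pros, nompC, iav, nan, Mhc, bt, sls, Col4a1, vkg, SP, Mst84Da and Phk-3 were named after their values were seen. The patterns that define the P450, cuticle and noncoding lists were corrected after the files were read, as they had caught genes of other families.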

Additional observations from a re-analysis of the deposited data

How the results depend on the processing

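No paired analysis was possible because 1 group was described, with no test. Depth limits genes near 3 counts, and TPM depends on the annotated exon length. The share of the 100 most abundant genes, 28.1% of counts, was 42.7% of TPM and 26.6% of counts without mitochondrially encoded genes. The odorant-binding protein share, 11.6% of TPM, was 11.3% with the longest transcript as length, 4.93% of counts and 12.2% without mitochondrially encoded genes. The tuning receptor sum, 3978 TPM, was 3848 with the longest transcript and 4209 without mitochondrially encoded genes. The 92 genes over 1.5-fold became 493 with a minimum of 1 CPM, 21 with a minimum of 20 CPM, 22 at a ratio over 2, and 37 to 56 with 1 library left out, where fewer libraries narrow the range by construction. The common coefficient of variation was 4.59% to 6.44% with 1 library left out, lowest without control 3. The count of detected genes, 8693, ranged from 7507 with a minimum of 5 CPM to 12752 with any count above 0. The library highest for each class was also counted on TMM-scaled totals and on totals without mitochondrially encoded genes, alternatives chosen after seeing the data. The description of core promoter motifs was not run, since no promoter sequence was used here.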

Other observations

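Genes of chromosome 4, the small dot chromosome of the fly, were detected more often and at higher levels than those of the other chromosomes. Of its 79 protein-coding genes 74 reached a mean of 1 CPM, or 93.7%, against 57.5% to 64.7% on X, 2L, 2R, 3L and 3R. The median of the detected genes was 80.3 TPM, against 27.4 TPM on X and 29.3 to 32.1 TPM on the large autosome arms. Abundant members were ATPsynbeta at 1716 ± 101 TPM and RpS3A at 1330 ± 101 TPM. Genes of the X chromosome held 16.1%, 16.4% and 16.5% of counts in control 1, 2 and 3.

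Noncoding RNA was a small part of the poly(A) pool. Of 2634 long noncoding and antisense genes 211 reached 1 CPM, beside 49.1% of all genes, and the class held 0.781% ± 0.0168 of TPM. The level was concentrated in lncRNA:CR42862, with 1939, 1955 and 2058 TPM, lncRNA:CR34335, with 1421, 1300 and 1580 TPM, and lncRNA:noe, with 1139, 1127 and 972 TPM. CR42862 and CR34335 were highest in control 3 and noe in control 1, with ranges of 1.06-fold to 1.22-fold.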
